A study of Mus musculus with 2 samples.

Results

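Pre-osteoblast/chondrocyte cells were compared with Osteoblast progenitor cells of the mouse bone marrow stroma. Both names are classes that the authors deposited for each cell passing their filter, and every passing cell of each class was taken. Pre-osteoblast/chondrocyte held 91 cells, 25 in the sample Stroma1 and 66 in Stroma2. Osteoblast progenitor held 404 cells, 144 in Stroma1 and 260 in Stroma2. Together they were 495 of the 2847 passing cells, which fall into 7 deposited classes. The comparison asks how the RNA of the small class on the bone and cartilage side differs from that of the larger class labelled as a progenitor.

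Both classes came out of the same 2 samples, so they share every condition. The mice were of the strain labelled C56BL/6 and 8 to 16 weeks old, and the labels name no genotype and no treatment. Marrow cells were taken from crushed leg and pelvic bones, with a collagenase and dispase digest of the fragments, and live cells negative for CD45, Ter119 and CD31 were sorted, which removes most blood and endothelial cells. RNA was read in inDrops droplets, as 2 libraries of Stroma1 and 3 of Stroma2. Whether Stroma1 and Stroma2 are separate mice, or pools of several, is not in the labels. P-values therefore concern only these samples, and they rest on a spread pooled over genes, not on each gene's own.

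Bone-forming cells arise from mesenchymal progenitors under the transcription factors Runx2 and Sp7. They lay down type I collagen and then mineralize it with the help of phosphorylated proteins such as osteopontin and dentin matrix protein 1. Cartilage cells follow Sox9 and make type II collagen and aggrecan in place of type I collagen. Stromal cells of the marrow that carry the leptin receptor supply blood stem cells with Cxcl12 and Kit ligand and can turn into fat or bone.

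Pre-osteoblast/chondrocyte sums held 55218 counts in Stroma1 and 119724 in Stroma2, with medians of 2107 and 1440.5 counts per cell. Osteoblast progenitor sums held 238611 and 389037 counts, with medians of 1513.5 and 1199. Mitochondrial counts were 7.74% and 6.37% of the total in Pre-osteoblast/chondrocyte, and 7.23% and 6.90% in Osteoblast progenitor. In Stroma2, 25 of the 66 Pre-osteoblast/chondrocyte cells and 47 of the 260 Osteoblast progenitor cells carried a barcode that also stood in another library of that sample. In Stroma1 this held for 0 of 25 and 2 of 144 cells. With such barcodes counted once, 183 genes were higher and 214 lower, and with the cells that share them left out, an alternative chosen after seeing the data, 193 and 241.

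The class name was checked against its markers. All 8 osteoblast lineage markers had counts in Pre-osteoblast/chondrocyte, with summed levels of 98410 and 99738 CPM (each count over the total of its class and sample, on the usual CPM scale) in Stroma1 and Stroma2, against 9010 and 12973 CPM in Osteoblast progenitor, where all 8 also had counts. Most of that sum was Spp1, Col1a1 and Ibsp, the 3 markers called higher of 7 tested; Runx2, Sp7, Dlx5 and Alpl were not called. Of 9 chondrocyte markers, 4 had counts in Pre-osteoblast/chondrocyte, and Acan, Col9a1, Col9a2, Hapln1 and Matn3 were at 0. Their summed level was 362 and 109 CPM in Pre-osteoblast/chondrocyte and 126 and 123 CPM in Osteoblast progenitor. Sox9, the cartilage regulator, had 3 and 4 counts in Pre-osteoblast/chondrocyte and 10 and 27 in Osteoblast progenitor. Col2a1, type II collagen, had 15 and 5 counts in Pre-osteoblast/chondrocyte and 3 and 0 in Osteoblast progenitor, and 8 of those 20 counts lay in 1 cell. Sox9, Col2a1 and Acan were too low to be tested. A broader list of 21 cartilage matrix genes had 13 of them at 0 in Pre-osteoblast/chondrocyte. It summed to 453 and 393 CPM in Pre-osteoblast/chondrocyte and to 235 and 229 CPM in Osteoblast progenitor. In Pro-osteoblast, another deposited class, the same list summed to 6009 and 7173 CPM. With no filter on low counts, that list had 1 higher and 0 lower calls of 12 tested, and the chondrocyte markers 1 and 0 of 6. Over all genes in that setting, 128 of 14311 were higher and 238 lower. The lists share members, so these calls may be the same gene. The deposited name is kept below as the authors' label.

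Markers of other cell types were summed in the same way. The 20 blood markers summed to 54.3 and 25.1 CPM in Pre-osteoblast/chondrocyte, where 15 of them were at 0, and to 117 and 465 CPM in Osteoblast progenitor. The 8 endothelial markers summed to 0 and 25.1 CPM in Pre-osteoblast/chondrocyte, and to 21.0 and 15.4 CPM in Osteoblast progenitor. The osteoclast list summed to 616 and 1011 CPM in Pre-osteoblast/chondrocyte, and to 264 and 298 CPM in Osteoblast progenitor. Oscar, Ocstamp and Dcstamp were at 0 in Pre-osteoblast/chondrocyte, and most of the sum there was Mmp9, at 453 and 819 CPM. The osteocyte list summed to 2046 and 1645 CPM in Pre-osteoblast/chondrocyte and to 46.1 and 36.0 CPM in Osteoblast progenitor. Most of the Pre-osteoblast/chondrocyte sum was 1 gene, Dmp1, at 1847 and 1503 CPM. Sost and Fgf23, which mature osteocytes make, were at 0 in both classes. The fibroblast and periosteum list summed to 887 and 1378 CPM in Pre-osteoblast/chondrocyte and to 1228 and 1691 CPM in Osteoblast progenitor, with Pi16, Clec3b, Cd34 and Ly6a at 0 in both. The part of osteoclasts, osteocytes and fibroblasts in the results below was not tested.

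Of 3308 genes with enough counts, 204 were higher in Pre-osteoblast/chondrocyte (6.17%) and 253 were lower (7.65%) by edgeR's quasi-likelihood test at an adjusted p under 0.05, with the sample as a block. The median log2 change over all genes tested was −0.02. All 253 lower genes and 203 of the 204 higher ones had the same sign in both samples. In the 5 libraries taken one by one, 153 of the higher genes and 243 of the lower ones kept that sign in every library. The calls were made on these same samples and libraries, so this agreement is no replication, and the share over all genes tested was not taken. A library with 0 counts in Pre-osteoblast/chondrocyte and some in Osteoblast progenitor was taken as lower, and 20 of the lower genes had 0 counts in Pre-osteoblast/chondrocyte. The authors may have drawn the classes from these same genes, so no call here is independent support for a marker. The 4 sums leave 1 residual degree of freedom, and the calls moved with the libraries used: 26 genes were higher and 56 lower without library 1.1, and 65 and 87 without library 2.3. Without library 2.1 the calls were 122 higher and 151 lower, and without library 2.2 they were 149 and 155. Scaling by library totals alone moved the median to −0.18 and gave 161 higher and 317 lower genes, or 33.7% higher among the calls, against 44.6% with TMM.

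**Figure D1:**
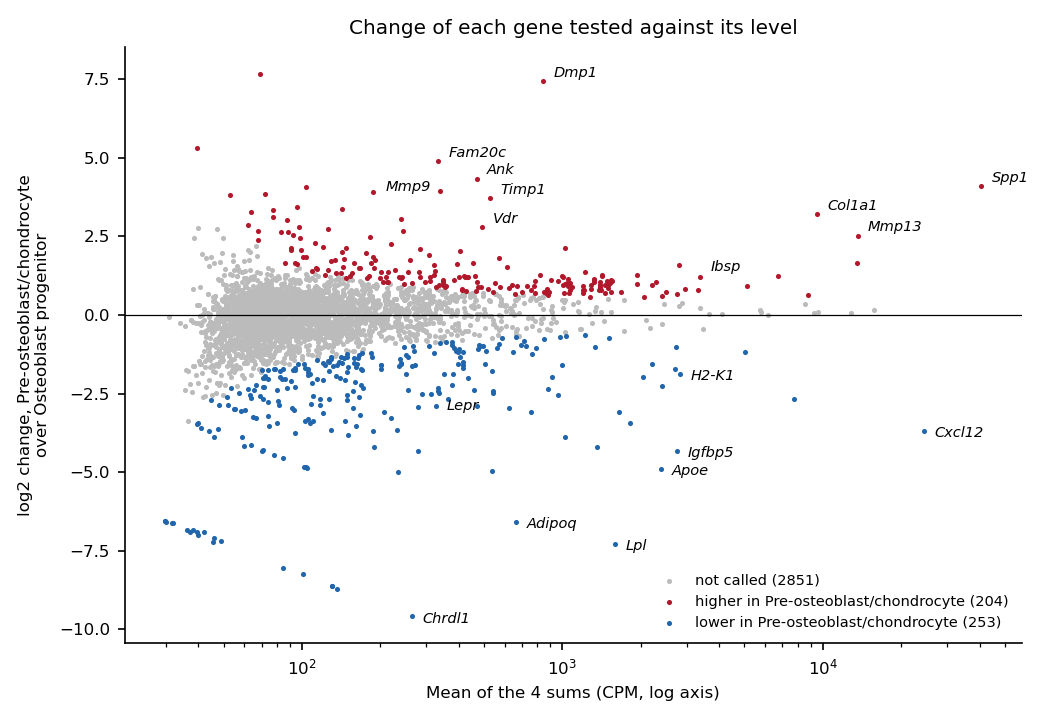
Log2 change of Pre-osteoblast/chondrocyte over Osteoblast progenitor (y axis) against the mean CPM of the 4 sums (x axis, log scale), 1 point per gene tested, with 204 genes called higher, 253 called lower and the rest not called. Dmp1 (7.44) stands near the top; the slanting row at the lower left, which ends in Chrdl1, holds genes with 0 counts in Pre-osteoblast/chondrocyte, and the point above Dmp1 is Kcnj15, with 0 counts in Osteoblast progenitor, whose fitted changes are all no measured folds.

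Of the pathway lists, bone matrix genes had the highest median change, 1.66 on the log2 scale. Of 15 genes listed, 7 were tested, 6 were higher and 1 was lower. Dmp1, a phosphoprotein that binds calcium and marks cells embedding in bone (chromosome 5, 104202613 to 104214102), had 102 and 180 counts in Pre-osteoblast/chondrocyte, against 2 and 4 counts in the larger Osteoblast progenitor sums. That is 1847 and 1503 CPM in Pre-osteoblast/chondrocyte, against 8.38 and 10.3 CPM in Osteoblast progenitor. The log2 change was 7.44 (SE 0.37, adjusted p = 6.4e-82), and Dmp1 was higher in 5 of 5 libraries. The classes did not come near each other in either sample; 41 of the 102 counts in Stroma1 lay in 1 Pre-osteoblast/chondrocyte cell, without which the level there was 1163 CPM.

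Spp1, or osteopontin, a phosphoprotein of bone that also binds cell-surface integrins (chromosome 5, 104435118 to 104441050), was higher in both samples. It had 74070 and 78255 CPM in Pre-osteoblast/chondrocyte and 3856 and 5927 CPM in Osteoblast progenitor, a log2 change of 4.11 (SE 0.28, adjusted p = 5.8e-45). Type I collagen rose less evenly. Col1a1 (chromosome 11, 94936224 to 94953042) had 18364 and 15310 CPM in Pre-osteoblast/chondrocyte and 1132 and 3249 CPM in Osteoblast progenitor, a change of 3.20 (SE 0.24, adjusted p = 9.0e-37). Col1a2, the other chain, had 21877 and 18284 CPM in Pre-osteoblast/chondrocyte and 5683 and 8223 CPM in Osteoblast progenitor, a change of 1.66 (SE 0.23, adjusted p = 4.1e-11). For both chains Stroma2 held the higher Osteoblast progenitor level, still below either Pre-osteoblast/chondrocyte sum. In Stroma1, 452 of the 1014 Col1a1 counts and 536 of the 1208 Col1a2 counts of Pre-osteoblast/chondrocyte lay in 1 cell each, and without the fullest cell the levels there were 10673 and 12762 CPM.

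Ibsp, bone sialoprotein, rose by 1.21 (SE 0.21, adjusted p = 1.7e-07), with 4817 and 4393 CPM in Pre-osteoblast/chondrocyte and 2301 and 2026 CPM in Osteoblast progenitor. Sparc, or osteonectin, which binds collagen and calcium, rose by 0.63 (SE 0.22, adjusted p = 0.030), and 10 of 17 alternatives lost that call. Omd, a keratan sulfate proteoglycan of bone, fell by 2.56 (SE 0.52, adjusted p = 1.9e-05) and had 0 and 8 counts in Pre-osteoblast/chondrocyte, 7 of them in 1 cell, against 54 and 117 in Osteoblast progenitor. Its call ended without library 1.1 and without library 2.3. Bglap, osteocalcin of mature osteoblasts, was too low to be tested, with 0 and 16 counts in Pre-osteoblast/chondrocyte and 5 and 4 in Osteoblast progenitor.

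Genes that handle phosphate and pyrophosphate moved with the matrix in part. Fam20c, the Golgi kinase that phosphorylates secreted proteins such as Dmp1 and osteopontin (chromosome 5, 138754514 to 138810077), had 724 and 568 CPM in Pre-osteoblast/chondrocyte and 21.0 and 23.1 CPM in Osteoblast progenitor, a change of 4.90 (SE 0.41, adjusted p = 4.8e-30). Ank, which passes pyrophosphate and ATP out of the cell (chromosome 15, 27466677 to 27594909), had 1195 and 593 CPM in Pre-osteoblast/chondrocyte and 37.7 and 46.3 CPM in Osteoblast progenitor, a change of 4.35 (SE 0.34, adjusted p = 1.1e-33). In Stroma1, 25 of the 66 Ank counts of Pre-osteoblast/chondrocyte lay in 1 cell, without which the level was 782 CPM. Enpp1, which makes pyrophosphate outside the cell, rose by 2.68 (SE 0.38, adjusted p = 2.3e-10), with 26 and 45 counts in Pre-osteoblast/chondrocyte against 5 and 44 in Osteoblast progenitor. Without library 1.1 the Enpp1 call was lost. Slc20a2, a phosphate carrier, fell by 2.69 (SE 0.53, adjusted p = 1.4e-05). Alpl, the phosphatase that removes pyrophosphate, did not pass: it had 652 and 760 CPM in Pre-osteoblast/chondrocyte and 1060 and 1031 CPM in Osteoblast progenitor (−0.43, SE 0.23, adjusted p = 0.24). Of 5 mineralization genes tested, 2 were higher and 1 lower, with a median of 0.12 that became −0.03 with library totals alone.

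**Figure D2:**
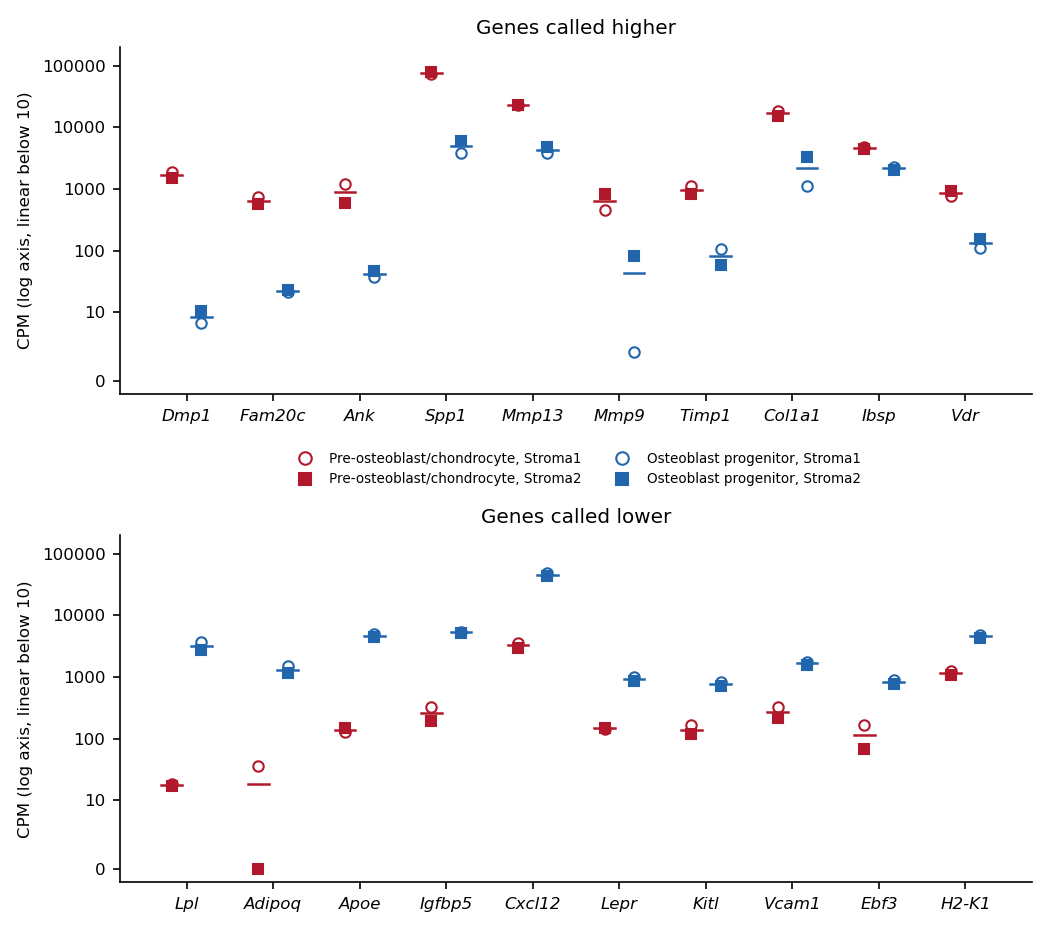
CPM (log axis, linear below 10) of 10 genes called higher and 10 called lower, in Pre-osteoblast/chondrocyte (left of each pair) and Osteoblast progenitor (right), with an open circle for Stroma1, a filled square for Stroma2 and a line at their mean. The samples of a class lie close together for most genes. Mmp9 in Osteoblast progenitor (4.19 and 82.3 CPM) and Adipoq in Pre-osteoblast/chondrocyte (36.2 and 0 CPM) are the pairs that spread most. Others spread less, such as Col1a1 in Osteoblast progenitor (1132 and 3249 CPM) and Ank in Pre-osteoblast/chondrocyte (1195 and 593 CPM).

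The transcription factors that start the osteoblast program did not pass the test. Runx2, which commits cells to bone, had 235 and 635 CPM in Pre-osteoblast/chondrocyte and 289 and 401 CPM in Osteoblast progenitor (0.46, SE 0.29, adjusted p = 0.38). Sp7, which acts after Runx2, had 199 and 159 CPM in Pre-osteoblast/chondrocyte and 205 and 211 CPM in Osteoblast progenitor (−0.14, SE 0.39, adjusted p = 0.90). Dlx5 stood at −0.49 (SE 0.50, adjusted p = 0.65). The Runx2 levels of the classes overlapped, and 17 of 17 alternatives left Runx2 and Sp7 uncalled. Of 10 osteogenic factors tested, 2 were higher and 1 lower, with a median of 0.18. Mef2c, a muscle and bone factor, rose by 1.75 (SE 0.46, adjusted p = 0.0018), and Creb3l1, a membrane-bound factor for collagen secretion, by 1.5 (SE 0.48, adjusted p = 0.015). Xbp1 of the unfolded protein response fell by 1.51 (SE 0.52, adjusted p = 0.029). These calls are weak: without library 1.1, without library 2.2 and without library 2.3 the list had 0 calls, as with DESeq2's Wald test, while edgeR at an unadjusted p under 0.05 gave 2 higher and 1 lower.

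Matrix proteases and protease inhibitors moved in both directions. Of 20 tested, 8 were higher and 4 lower, with a median of 0.56. Without library 1.1 the counts were 4 and 1 of 17, and with any other library left out the list had 1 or 2 lower calls. Mmp13, the collagenase of bone remodelling (chromosome 9, 7272514 to 7283331), had 22819 and 22911 CPM in Pre-osteoblast/chondrocyte and 3805 and 4840 CPM in Osteoblast progenitor, a change of 2.53 (SE 0.23, adjusted p = 2.6e-24). Timp1, an inhibitor of such enzymes (chromosome X, 20870166 to 20874735), had 1123 and 827 CPM in Pre-osteoblast/chondrocyte and 105 and 59.1 CPM in Osteoblast progenitor, a change of 3.73 (SE 0.30, adjusted p = 1.5e-31). An enzyme and an inhibitor were thus both far above their Osteoblast progenitor levels in each sample. Mmp2, a gelatinase, rose by 1.53, Adam12 by 1.51, Serpinf1, or pigment epithelium-derived factor, by 1.58, Serpine2 by 1.23 and Fap, a membrane peptidase of fibroblasts, by 0.76. Serping1, the inhibitor of complement C1, fell by 3.44 (SE 0.26, adjusted p = 7.7e-36), with 235 and 309 CPM in Pre-osteoblast/chondrocyte and 3613 and 3136 CPM in Osteoblast progenitor.

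Mmp9, a gelatinase made in abundance by osteoclasts, rested on few cells. It had 25 and 98 counts in Pre-osteoblast/chondrocyte and 1 and 32 in Osteoblast progenitor, a change of 3.94 (SE 0.37, adjusted p = 7.7e-24). In Stroma2, 76 of the 98 counts lay in 1 cell, and without that cell the level there fell to 187 CPM, against 819 CPM with it. The call ended without library 2.2, and in library 2.3 Mmp9 was lower in Pre-osteoblast/chondrocyte, at 102 CPM against 154 CPM in Osteoblast progenitor. Ctsk, the collagen-cutting protease of osteoclasts, stood at −0.26 and was not called.

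The RefSeq promoter windows (GRCm38.p6, 250 bases before to 50 after a start) of 3 of these higher genes are shown, with that of Cxcl12, a lower gene described below, beside them. Capitals mark TGTGGT, a motif of Runx factors, TGAGTCA, a motif of the AP-1 factors such as Fos and Jun, and TATAAA, on either strand. The windows are chr5:104202367-104202666 for Dmp1, chr5:104434861-104435160 for Spp1, chr9:7272264-7272563 for Mmp13 and chr6:117168285-117168584 for Cxcl12, all on the plus strand and printed 5′ to 3′.
Dmp1: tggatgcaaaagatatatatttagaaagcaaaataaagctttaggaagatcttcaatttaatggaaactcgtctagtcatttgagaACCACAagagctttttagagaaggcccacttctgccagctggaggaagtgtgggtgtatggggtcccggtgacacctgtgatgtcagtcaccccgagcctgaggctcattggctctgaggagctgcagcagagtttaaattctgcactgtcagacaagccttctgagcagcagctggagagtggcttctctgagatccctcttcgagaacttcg
Spp1: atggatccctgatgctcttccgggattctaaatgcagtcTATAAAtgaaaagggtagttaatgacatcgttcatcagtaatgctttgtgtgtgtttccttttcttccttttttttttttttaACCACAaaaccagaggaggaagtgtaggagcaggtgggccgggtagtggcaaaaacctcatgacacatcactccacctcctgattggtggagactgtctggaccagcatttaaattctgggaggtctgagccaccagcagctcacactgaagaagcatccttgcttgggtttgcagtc
Mmp13: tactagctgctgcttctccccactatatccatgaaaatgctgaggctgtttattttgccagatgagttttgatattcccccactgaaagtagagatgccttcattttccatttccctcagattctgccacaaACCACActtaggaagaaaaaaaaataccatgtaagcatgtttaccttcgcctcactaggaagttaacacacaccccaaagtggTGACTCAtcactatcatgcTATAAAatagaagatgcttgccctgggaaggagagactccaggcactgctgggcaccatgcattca
Cxcl12: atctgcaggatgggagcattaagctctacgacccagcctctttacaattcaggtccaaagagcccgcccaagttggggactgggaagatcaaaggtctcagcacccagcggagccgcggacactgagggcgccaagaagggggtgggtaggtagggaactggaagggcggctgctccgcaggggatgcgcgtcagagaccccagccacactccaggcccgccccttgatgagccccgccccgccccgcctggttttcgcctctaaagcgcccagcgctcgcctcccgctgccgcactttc
The Runx letters stood once in the Dmp1, Spp1 and Mmp13 windows, each time on the minus strand as ACCACA, and 16.8% of all 32851 windows hold them. The AP-1 letters stood in the Mmp13 window as TGACTCA, beginning 35 bases before the start, and 5.20% of all windows hold them. TATAAA stood in the Spp1 and Mmp13 windows and in 13.6% of all windows. It was in 14.2% of higher genes, 11.8% of lower genes and 7.84% of genes tested, and the AP-1 letters were in 3.38%, 3.93% and 3.42% of the same sets. The Cxcl12 window held none of the 3 motifs. Among the genes with a window, the Runx letters were in 11.5% of 148 higher genes, 11.8% of 178 lower genes and 11.1% of 2576 genes tested. A match describes letters and shows no binding, and no motifs overlapped in these windows. Of 120 named genes, 81 had a window in the table.

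Receptors for hormones and growth factors changed one by one rather than together. Vdr, the vitamin D receptor (chromosome 15, 97854425 to 97910630), had 779 and 927 CPM in Pre-osteoblast/chondrocyte and 109 and 152 CPM in Osteoblast progenitor, a change of 2.81 (SE 0.29, adjusted p = 6.8e-20). Lifr, the receptor of leukemia inhibitory factor, had 2010 and 1462 CPM in Pre-osteoblast/chondrocyte and 717 and 707 CPM in Osteoblast progenitor, a change of 1.37 (SE 0.21, adjusted p = 2.2e-09). Fgfr1 rose by 1.12 (SE 0.31, adjusted p = 0.0032), while Fgfr2 fell by 1.48 (SE 0.32, adjusted p = 7.2e-05), so these receptors of fibroblast growth factors moved in opposite directions. Both calls were lost without library 1.1, without library 2.3 and with DESeq2. Ghr, the growth hormone receptor, fell by 1.37. Pth1r, the parathyroid hormone receptor of osteoblasts, had 181 and 192 CPM in Pre-osteoblast/chondrocyte and 231 and 229 CPM in Osteoblast progenitor and did not pass (−0.18, SE 0.38, adjusted p = 0.86). Of 12 hormone receptors tested, 2 were higher and 4 lower, and with any 1 library left out the list had at most 1 lower call.

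Among surface and guidance molecules, Slit2, a secreted guidance cue that acts on Robo receptors, rose by 2.10 (SE 0.34, adjusted p = 5.3e-08). Its level was 417 and 493 CPM in Pre-osteoblast/chondrocyte and 96.4 and 131 CPM in Osteoblast progenitor. Itgb5, an integrin subunit that binds vitronectin, rose by 2.27 (SE 0.38, adjusted p = 1.6e-07), and Cd200, an inhibitory ligand for myeloid cells, by 1.97 (SE 0.41, adjusted p = 4.5e-05). Postn, periostin, an adhesive matrix protein of the bone surface, had 960 and 793 CPM in Pre-osteoblast/chondrocyte and 268 and 260 CPM in Osteoblast progenitor, a change of 1.83 (SE 0.26, adjusted p = 1.6e-10). Library 1.1 carried much of it: its level there was 1646 CPM in Pre-osteoblast/chondrocyte and 183 CPM in Osteoblast progenitor, library 1.2 had 257 CPM in Pre-osteoblast/chondrocyte and 383 CPM in Osteoblast progenitor, and the call ended without library 1.1, as that of Slit2 did. In Stroma1, 21 of the 53 Postn counts of Pre-osteoblast/chondrocyte lay in 1 cell, without which the level was 611 CPM. Cdh11, a cadherin of osteoblasts, fell by 1.05, a call lost without library 1.1, without library 2.3 and with DESeq2. Itgb1, an integrin subunit for collagen and fibronectin, fell by 0.72, a call lost in 8 of 17 alternatives, each left-out library among them. Of 14 adhesion and guidance genes tested, 3 were higher and 3 lower, and without library 1.1 the counts were 1 and 0 of 11.

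Cyclins that open the cell cycle rose. Ccnd1, cyclin D1, had 380 and 317 CPM in Pre-osteoblast/chondrocyte and 33.5 and 18 CPM in Osteoblast progenitor, a change of 3.92 (SE 0.47, adjusted p = 1.2e-14), and it was called in 17 of 17 alternatives. Ccnd2, cyclin D2, rose by 1.06 (SE 0.32, adjusted p = 0.011), and so did Cdkn1a, the inhibitor p21 of cyclin-dependent kinases, by 1.38 (SE 0.35, adjusted p = 0.0010). Ube2c, a ubiquitin enzyme of mitosis, rose by 3.36 (SE 0.92, adjusted p = 0.0036) on 11 and 10 counts in Pre-osteoblast/chondrocyte against 3 and 5 in Osteoblast progenitor, with 10 of those counts in 1 cell. Cdk1 at 2.19 and Birc5 at 1.92 were not called. Of 15 cell cycle genes tested, 4 were higher and 0 lower (edgeR; 7 and 0 at an unadjusted p under 0.05, and 1 and 0 with DESeq2). Without library 1.1 and without library 2.3 the list had 1 higher call each.

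Ribosomal protein genes rose as a body. The listed genes summed to 109530 and 99153 CPM in Pre-osteoblast/chondrocyte and to 57764 and 60125 CPM in Osteoblast progenitor. Of 80 tested, 64 were higher and 0 lower (edgeR; 74 and 0 at an unadjusted p under 0.05, and 33 and 0 with DESeq2), with a median log2 change of 0.91 against −0.02 over all genes tested. Rpl23 rose by 1.58 (SE 0.21, adjusted p = 1.6e-12), with 4220 and 4001 CPM in Pre-osteoblast/chondrocyte and 1433 and 1540 CPM in Osteoblast progenitor. The median was 0.75 with library totals alone, where 56 were called, and 0.72 with no filter on low counts. The calls were 3 of 79 without library 1.1 and 23 of 78 without library 2.3, where the medians were 0.79 and 0.84. Ribosomal protein genes have many near-identical pseudogenes, so their counts depend on how shared reads were assigned. Nuclear respiratory chain genes, by contrast, had 1 higher and 1 lower of 62 and a median of 0.21, and of 12 mitochondrially encoded genes none passed (edgeR; 0 at an unadjusted p under 0.05, and 0 with DESeq2), with a median of 0.08.

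Immediate-early genes, which respond fast to stimulation and to tissue digestion, had 7 higher and 0 lower of 18 (edgeR; 13 and 0 at an unadjusted p under 0.05, and 1 and 0 with DESeq2), with a median of 0.71. Ier2 rose by 1.76 (SE 0.35, adjusted p = 1.4e-05), Nr4a1 by 1.67, Jund by 1.07, Fos by 0.82 and Jun by 0.69. The higher calls were 4 without library 1.2, 2 without library 2.1, 4 without library 2.2 and 1 each without libraries 1.1 and 2.3. Cytoskeletal genes had 8 higher and 1 lower of 26. S100a6, a calcium-binding protein, led the well-measured ones with 1883 and 1412 CPM in Pre-osteoblast/chondrocyte and 398 and 391 CPM in Osteoblast progenitor, a change of 2.14 (SE 0.22, adjusted p = 3.1e-20). Myl9, a myosin light chain of contractile cells, fell by 2.34 (SE 0.38, adjusted p = 3.7e-08). With any 1 library left out the cytoskeletal list had between 1 and 5 higher calls.

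Of the pathway lists, genes of leptin receptor cells and of fat cells had the lowest median, −2.67, or −2.50 with genes at 0 counts set to their bounds, where the niche factors stood at −2.53. Of 19 tested, 14 were lower and 1, Cebpb, was higher; without library 1.1 the counts were 10 and 0 of 16. Lpl, lipoprotein lipase, which frees fatty acids from blood lipids (chromosome 8, 68880491 to 68907448), had 1 and 2 counts in Pre-osteoblast/chondrocyte and 868 and 1053 in Osteoblast progenitor. Its level was 161 times as high in Osteoblast progenitor, with a 95% counting interval of 54.9 to 780. Adipoq, the hormone adiponectin (chromosome 16, 23146536 to 23158028), had 2 and 0 counts in Pre-osteoblast/chondrocyte, both in 1 cell, and 356 and 442 in Osteoblast progenitor, a ratio of 100 in favour of Osteoblast progenitor (27.6 to 829). Pparg, the master regulator of fat cells, had 0 counts in Pre-osteoblast/chondrocyte and 17 and 22 in Osteoblast progenitor, at least 3.26-fold lower in Pre-osteoblast/chondrocyte when 3 counts over both samples are allowed. These 3 genes were close to unread in Pre-osteoblast/chondrocyte. The 27 listed genes together summed to 3785 and 2731 CPM in Pre-osteoblast/chondrocyte, where 24 had counts, and to 23348 and 19595 CPM in Osteoblast progenitor.

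Other members of the list had enough counts for a fold. Apoe, a lipid-carrying apolipoprotein, had 127 and 150 CPM in Pre-osteoblast/chondrocyte and 4933 and 4365 CPM in Osteoblast progenitor, a change of −4.89 (SE 0.30, adjusted p = 6.4e-55). Lepr, the leptin receptor itself, had 145 and 150 CPM in Pre-osteoblast/chondrocyte and 1010 and 851 CPM in Osteoblast progenitor, a change of −2.50 (SE 0.31, adjusted p = 3.0e-13). Ebf3, which with Foxc1 keeps stromal niche cells in their state, had 163 and 66.8 CPM in Pre-osteoblast/chondrocyte and 893 and 761 CPM in Osteoblast progenitor, a change of −2.89 (SE 0.35, adjusted p = 1.9e-14). Cebpa, an activator of fat cell genes, fell by 4.33 and Foxc1 by 0.98. Cebpb, which acts earlier in fat cell formation and in stress, rose by 1.66.

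Niche factors fell with them: of 16 tested, 11 were lower and 0 higher (edgeR; 11 and 0 at an unadjusted p under 0.05, and 6 and 0 with DESeq2), with a median of −2.61. Cxcl12, the chemokine that keeps blood stem cells in the marrow (chromosome 6, 117168535 to 117181367), had 3586 and 2999 CPM in Pre-osteoblast/chondrocyte and 48552 and 42723 CPM in Osteoblast progenitor, a change of −3.68 (SE 0.26, adjusted p = 4.1e-40). Kitl, the ligand of Kit on blood stem cells (chromosome 10, 100015630 to 100100416), had 163 and 117 CPM in Pre-osteoblast/chondrocyte and 838 and 715 CPM in Osteoblast progenitor, a change of −2.39 (SE 0.33, adjusted p = 5.4e-11). Vcam1, an adhesion molecule for blood cells, fell by 2.55 (SE 0.26, adjusted p = 9.6e-20), and Cxcl14, another chemokine, by 3.89 (SE 0.30, adjusted p = 1.4e-34). Il7, which B cell precursors need, had 0 counts in Pre-osteoblast/chondrocyte and 17 and 30 in Osteoblast progenitor, at least 3.93-fold lower in Pre-osteoblast/chondrocyte. Il34, a ligand of the Csf1 receptor, had 0 and 1 counts in Pre-osteoblast/chondrocyte and 37 and 47 in Osteoblast progenitor. Csf1 at −0.40, Tnfsf11, the osteoclast factor RANKL, at 0.74 and Vegfa at 0.29 were not called. Without library 1.1 there were 6 lower calls of 13, and without library 2.3 there were 7 of 16.

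Ligands and antagonists of the BMP and TGF-beta families were lower on balance, with 1 higher and 12 lower of 25 and a median of −0.80. Chrdl1, a BMP antagonist, was the gene with most counts in Osteoblast progenitor among those at 0 in Pre-osteoblast/chondrocyte: 0 and 0 against 151 and 164 counts, at least 26.4-fold lower in Pre-osteoblast/chondrocyte. Grem1, another antagonist (chromosome 2, 113746164 to 113758646), had 36.2 and 16.7 CPM in Pre-osteoblast/chondrocyte and 398 and 298 CPM in Osteoblast progenitor, a change of −3.69 (SE 0.56, adjusted p = 3.3e-09). The ligands Bmp4 and Bmp5 fell by 2.68 and 1.51. The antagonist Fst had 0 and 3 counts in Pre-osteoblast/chondrocyte and 60 and 64 in Osteoblast progenitor. Bmp3, a BMP that opposes the others, was the 1 higher member, with 10 and 11 counts in Pre-osteoblast/chondrocyte and 0 and 6 in Osteoblast progenitor, and its call was lost without library 1.1. Without library 1.1 the list had 5 lower calls of 19, and without library 2.3 it had 7 of 20.

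The IGF list had 9 lower genes of 12 and 1 higher, and a median of −2.38, or −2.18 with bounds. Igfbp5, which binds IGFs in the matrix (chromosome 1, 72857932 to 72874884), had 326 and 192 CPM in Pre-osteoblast/chondrocyte and 5431 and 5089 CPM in Osteoblast progenitor, a change of −4.32 (SE 0.28, adjusted p = 5.5e-50). Igf2 and Cdkn1c, imprinted genes of growth and its arrest, had 0 counts in Pre-osteoblast/chondrocyte, at least 3.77-fold and 4.94-fold lower there than in Osteoblast progenitor. Grb10, an adaptor that dampens insulin signals, rose by 1.04. The lower calls were 3 without library 1.1, 6 each without libraries 1.2 and 2.2, and 3 without library 2.3. In the Wnt list 2 of 15 genes were higher and 4 lower, with a median of −1.26, and the list had 0 calls without library 1.1, without library 2.3 or with DESeq2 (edgeR gave 3 and 7 at an unadjusted p under 0.05). Rspo2, which boosts Wnt signals, had 0 counts in Pre-osteoblast/chondrocyte and 21 and 25 in Osteoblast progenitor, at least 3.85-fold lower in Pre-osteoblast/chondrocyte. Wif1, a secreted Wnt inhibitor, had 1666 and 1904 CPM in Pre-osteoblast/chondrocyte and 2355 and 2771 CPM in Osteoblast progenitor (−0.41, SE 0.21, adjusted p = 0.22).

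Antigen presentation and interferon genes were lower or uncalled, with 8 lower and 0 higher of 18 (edgeR; 12 and 0 at an unadjusted p under 0.05, and 3 and 0 with DESeq2) and a median of −1.11. H2-K1, a class I molecule, had 1231 and 1061 CPM in Pre-osteoblast/chondrocyte and 4778 and 4272 CPM in Osteoblast progenitor, a change of −1.87 (SE 0.22, adjusted p = 5.4e-15). B2m, its light chain, fell by 1.17 and H2-D1 by 1.56. Class I genes are near-identical to one another, so their single values are uncertain. Complement genes were among those not read at all: C2 and C3 had 0 counts in Pre-osteoblast/chondrocyte and were at least 10.3-fold and 8.79-fold lower there than in Osteoblast progenitor. The lower calls in the interferon list were 3 without library 1.1, 4 without library 2.1, 5 without library 2.2 and 3 without library 2.3.

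Collagens other than type I fell, with 2 higher and 7 lower of 11 and a median of −1.17. Col3a1, the fibril collagen of soft tissue, had 72.4 and 217 CPM in Pre-osteoblast/chondrocyte and 901 and 974 CPM in Osteoblast progenitor, a change of −2.43 (SE 0.31, adjusted p = 4.6e-13). Of the basement membrane, Col4a2 fell by 2.40, Lamc1 fell by 2.24 and Lamb1 fell by 3.52 (SE 0.58, adjusted p = 6.4e-08). Col13a1, a membrane collagen, rose by 4.07 (SE 0.70, adjusted p = 2.8e-07), with 12 and 21 counts in Pre-osteoblast/chondrocyte against 0 and 8 in Osteoblast progenitor, and was lost without library 1.1 and without library 2.3. Fbln5, an elastic fibre protein, fell by 3.08 (SE 0.30, adjusted p = 3.4e-22), with 145 and 150 CPM in Pre-osteoblast/chondrocyte and 1408 and 1331 CPM in Osteoblast progenitor. Ogn, or mimecan, a small proteoglycan, fell by 2.93 (SE 0.43, adjusted p = 6.5e-10). Without library 1.1 the collagen list had 0 higher and 2 lower calls. Enzymes that fold and crosslink collagen had 0 higher and 2 lower of 23 with edgeR. They had 2 and 2 at an unadjusted p under 0.05, and 0 and 0 with DESeq2. Secretory pathway genes had 2 higher and 1 lower of 31. Over all genes tested 6.17% were higher and 7.65% lower, so 2 lower of 23 and 2 higher of 31 are near those shares.

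**Figure D3:**
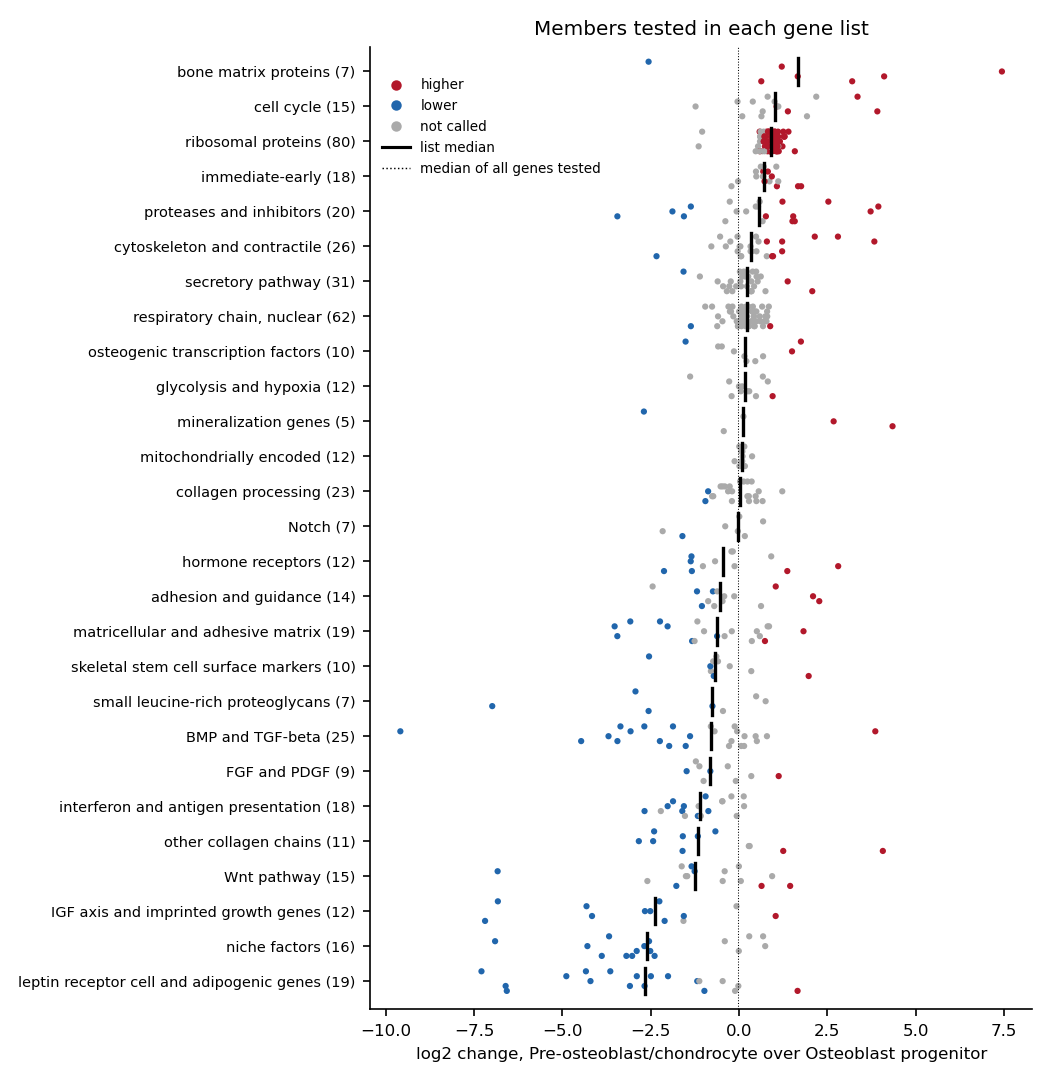
Log2 change of Pre-osteoblast/chondrocyte over Osteoblast progenitor for each tested member of the pathway lists with at least 5 tested members (1 point per gene, tested number in brackets), red for higher, blue for lower and grey for not called, with a black bar at the list median and a dotted line at the median of all genes tested (−0.02). Bone matrix proteins stand at the top with a median of 1.66 and leptin receptor cell and adipogenic genes at the bottom with −2.67.

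Among the 6 classes fitted together, levels set Pre-osteoblast/chondrocyte apart from Pro-osteoblast, the one with most Bglap. Pro-chondrocyte, the smallest deposited class, was left out of the fit. With 6 classes in 1 fit, the log2 change of Pre-osteoblast/chondrocyte over Pro-osteoblast was −4.53 for Col1a1 (SE 0.33, adjusted p = 5.0e-21) and −3.49 for Sparc (SE 0.18). It was −6.54 for Bglap (SE 0.26), with 0 and 134 CPM in Pre-osteoblast/chondrocyte and 5549 and 3719 CPM in Pro-osteoblast. Spp1 was higher than in Pro-osteoblast by 3.76 (SE 0.17), Mmp13 by 7.16 (SE 0.20) and Postn by 3.98 (SE 0.34). Dmp1, with 267 and 559 CPM in Pro-osteoblast, was higher in Pre-osteoblast/chondrocyte by 0.92 (SE 0.20, adjusted p = 2.6e-04), the smallest of these fitted differences. The fitted changes use TMM scaling and the CPM values use raw totals, so their sizes differ. For Dmp1, at 1847 and 1503 CPM in Pre-osteoblast/chondrocyte, the CPM values differ by more than the fitted change in each sample. Wif1, not called against Osteoblast progenitor, was higher than in Pro-osteoblast by 3.15 (SE 0.20). The change over MSC was 5.41 for Spp1 (SE 0.18) and 5.44 for Mmp13 (SE 0.15). It was 2.03 for Sp7 (SE 0.39) and −4.12 for Cxcl12 (SE 0.22). Cxcl12 in Pro-osteoblast was at 1688 and 482 CPM, below Pre-osteoblast/chondrocyte on raw totals, without the TMM scaling of the fitted changes.

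**Figure D4:**
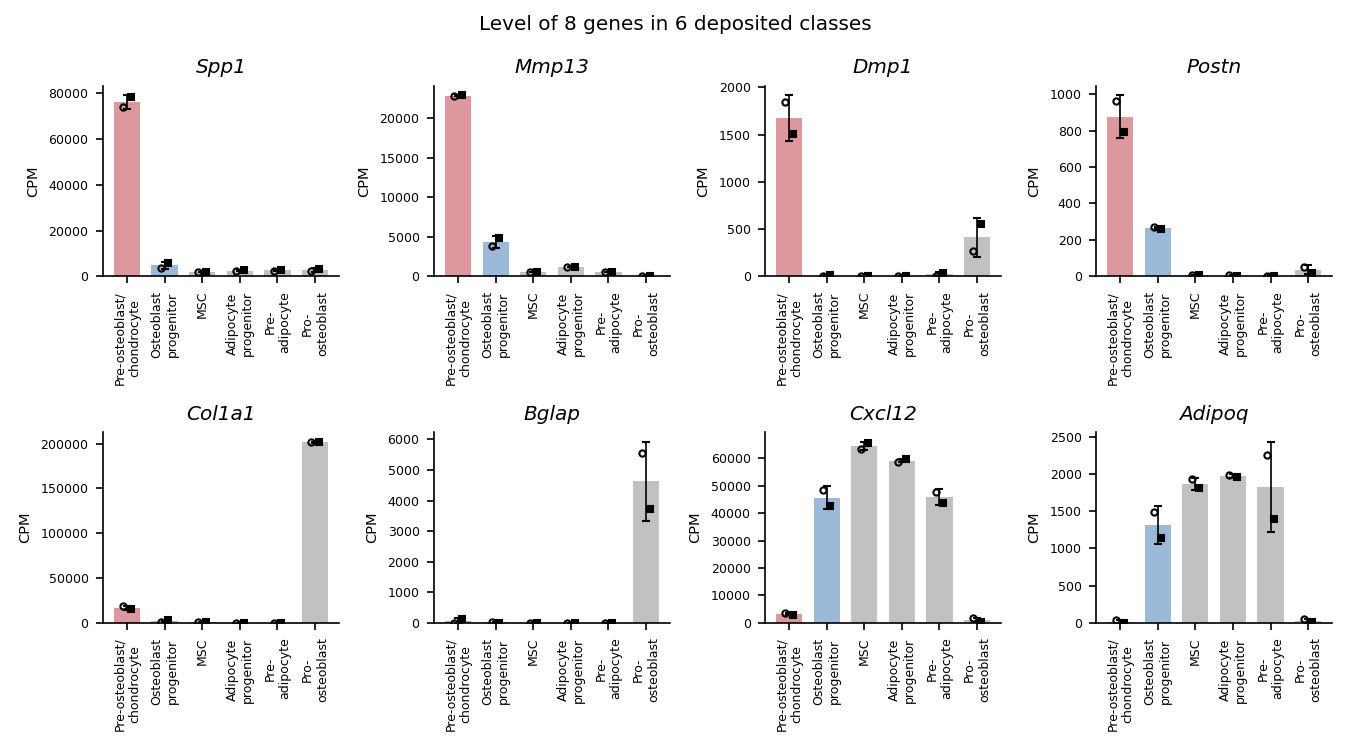
CPM of 8 genes in 6 deposited classes, with bars at the mean, error bars of 1 SD (n = 2 samples), an open circle for Stroma1 and a filled square for Stroma2. Of these 6 classes, Spp1, Mmp13, Dmp1 and Postn are highest in Pre-osteoblast/chondrocyte, and Col1a1 and Bglap in Pro-osteoblast. Cxcl12 and Adipoq are low in both of those classes. Pro-chondrocyte, the smallest deposited class, is not shown.

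Single cells thinned to 500 counts each showed whether a difference lay in many cells or few. Spp1 had a count in 24 of 25 and 61 of 66 Pre-osteoblast/chondrocyte cells, and in 88 of 144 and 166 of 260 Osteoblast progenitor cells. Mmp13 had a count in 24 of 25 and 56 of 66 Pre-osteoblast/chondrocyte cells, and in 68 of 144 and 133 of 260 Osteoblast progenitor cells. Dmp1 was read in fewer cells, 7 of 25 (28%, exact Clopper-Pearson 95% interval 12.1 to 49.4) and 18 of 66 (27.3%, 17 to 39.6) in Pre-osteoblast/chondrocyte, against 0 of 144 (which allows up to 2.08%) and 2 of 260 in Osteoblast progenitor. In MSC, which should lack it, Dmp1 had a count in 1 of 502 and 3 of 815 cells, at unthinned medians of 1377.5 and 1160 counts per cell. Dmp1 thus marked a portion of the class at this depth, and Spp1 and Mmp13 nearly all of it. In the 4 and 10 cells labelled Pro-chondrocyte, Dmp1 had a count in 4 and 9, a larger share than in Pre-osteoblast/chondrocyte.

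The lower genes showed the reverse spread. Lpl had a count in 0 of 25 and 0 of 66 Pre-osteoblast/chondrocyte cells after thinning, and in 1 cell of each sample before it, and in 78 of 144 and 130 of 260 Osteoblast progenitor cells. Adipoq had a count in 1 of 25 and 0 of 66 Pre-osteoblast/chondrocyte cells, and in 68 of 144 and 96 of 260 Osteoblast progenitor cells. Cxcl12 was read in 14 of 25 and 29 of 66 Pre-osteoblast/chondrocyte cells, and in 139 of 144 and 246 of 260 Osteoblast progenitor cells. In Pro-osteoblast, where the level is low, Cxcl12 was read in 7 of 42 and 33 of 305 cells, at unthinned medians of 4422 and 4201 counts per cell. Intervals and limits cover counting error only, and limit the share of cells with a count at this depth, not of cells that express the gene.

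The authors' deposited readouts of each cell differed in their medians as well. Their potential score had medians of −0.304 and −0.322 in Pre-osteoblast/chondrocyte and 0.128 and 0.106 in Osteoblast progenitor (its unit is not stated), and 21 of 25 and 2 of 66 Pre-osteoblast/chondrocyte cells lay below every Osteoblast progenitor cell of their sample. Their chondrocyte fate probability had medians of 0.380 and 0.379 in Pre-osteoblast/chondrocyte and 0.342 and 0.343 in Osteoblast progenitor, and 19 of 25 and 49 of 66 Pre-osteoblast/chondrocyte cells lay above every Osteoblast progenitor cell of their sample. The osteoblast fate probability was nearly level, at 0.334 and 0.333 in Pre-osteoblast/chondrocyte and 0.338 in both samples of Osteoblast progenitor. The probabilities span a narrow range around an equal split, and the chondrocyte value exceeded the osteoblast value in 24 of 25 and 61 of 66 Pre-osteoblast/chondrocyte cells and also in 133 of 144 and 232 of 260 Osteoblast progenitor cells. On the authors' osteoblast path lay 5 of 25 and 21 of 66 Pre-osteoblast/chondrocyte cells, against 132 of 144 and 222 of 260 Osteoblast progenitor cells. On their chondrocyte path, where nearly all cells of both classes lay, median pseudotimes were 0.964 and 0.967 in Pre-osteoblast/chondrocyte and 0.804 and 0.836 in Osteoblast progenitor. The readouts place the class on the cartilage side, while 5 of the 9 chondrocyte markers had no count in it. The broader cartilage matrix list, with counts for 8 of its 21 genes, summed higher there than in Osteoblast progenitor in both samples. It summed far higher still in Pro-osteoblast, at 6009 and 7173 CPM, so a raised sum of this list is not particular to the class. The readouts come from the same cells and are given without a test. An exact test of 2 samples against 2, with the pairing set aside, can give no p under 0.333.

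**Figure D5:**
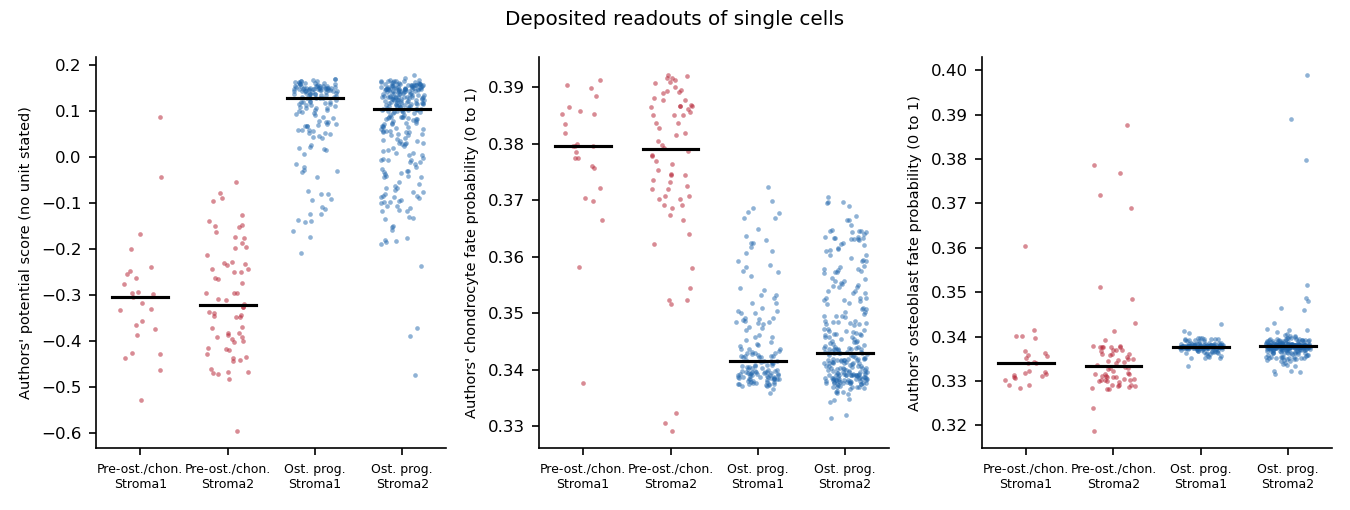
The authors' potential score, chondrocyte fate probability and osteoblast fate probability (y axes) of each cell, in Pre-osteoblast/chondrocyte (left, Stroma1 and Stroma2) and Osteoblast progenitor (right, Stroma1 and Stroma2), with 1 point per cell and a line at the median. Pre-osteoblast/chondrocyte cells lie lower in potential and higher in chondrocyte probability, and the osteoblast probabilities overlap.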

How the data were processed

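The deposited table holds raw counts for 25289 genes in 15028 cell barcodes. Its cell columns also give the authors' class, mitochondrial fraction, fate probabilities (as a fraction), pseudotime and potential score for the 2847 passing barcodes, per the file headers. Per the submitters' processing notes, Bowtie 1.1.1 and GRCm38 were used; how reads were counted, and the handling of molecular identifiers, strand and doublets, is not stated there. No further cell filter or doublet caller was applied.

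Counts were summed per class and sample into 4 sums and tested with edgeR 4.0.16 (R 4.3.3; TMM scaling, filterByExpr with a minimum count of 10, quasi-likelihood test, Benjamini-Hochberg adjustment over all 3308 genes). The sample was a block, since both classes come from the same 2 samples. The test was checked on data simulated with the same spread for every gene and no sample effect. That check cannot judge how the test does where the spread differs between genes. DESeq2 1.42.0 was an alternative, with other scalings, filters, left-out libraries, cells and barcodes. CPM values use raw totals without TMM. The standard error (SE) is the log2 change over the square root of F. As the prior degrees of freedom were infinite, p-values and SEs rest on a spread shared over genes. A gene's own difference between the samples does not enter them. Enpp1, for example, changed by 4.58 in Stroma1 and by 1.82 in Stroma2, at an SE of 0.38. For genes at 0 counts in a class, bounds use 3 counts over both samples.

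Named genes are the 16 highest and 14 lowest called genes with at least 40 counts and the same direction in both samples, a panel of osteogenic, cartilage and niche genes, and up to 4 called members of each list. Other genes named were chosen after their values were seen. The members and lists were chosen with earlier results of these data known. Gene coordinates are from the GENCODE annotation of GRCm38. Some genes are not reported here.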

Additional observations from a re-analysis of the deposited data

How the results depend on the processing

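With the sample block removed (no replicate block), 242 genes were higher and 281 lower, and the 116 tested named genes stayed on their side of the threshold; the pairing comes from both classes being taken from the same 2 samples. DESeq2's Wald test called 72 higher and 61 lower, and with no filter on low counts 128 were higher and 238 lower. Leaving out cells with blood markers, which removed 1 Pre-osteoblast/chondrocyte cell in Stroma1 and 4 and 5 Osteoblast progenitor cells, gave 120 higher and 134 lower. Without library 1.1 there were 26 higher and 56 lower, without 2.1 122 and 151, without 2.2 149 and 155, and without 2.3 65 and 87. The prior degrees of freedom that edgeR estimated were 4.51 without library 1.1, 6.2 without library 2.3 and 7.07 without the blood-marker cells, against infinite in the test as reported; the cause of the lost calls was not tested. The other alternatives, 143 to 288 higher and 171 to 317 lower among them, stayed within 1.5 times of the reported counts. No called named gene changed sign. Of the uncalled ones, Sp7 (−0.14) was at 0.10 without library 1.2, 0.02 without library 2.2 and 0.10 without Stroma2, Pth1r (−0.18) at 0.10 without library 1.2 and 0.07 without shared barcodes, and Runx2 (0.46) at −0.15 without Stroma2. Leaving out a sample leaves 1 sum a side and no test: log2 changes moved by more than the spread for 1 named gene without Stroma1 and for 16 without Stroma2. Depth limits genes with few counts in Pre-osteoblast/chondrocyte, whose sums are the smaller ones.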
